A study of Mus musculus with 16 samples.

Results

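The AMPA receptor subunits are encoded in the mouse by *Gria1*, *Gria2*, *Gria3* and *Gria4*, and these 4 genes of 54347 in the deposited count table are described here in hematopoietic stem and progenitor cells. They were chosen by their symbols, and the family was selected on values of these same data. *Gria3* was known to be well expressed in GMPs and to fall in URE cells. The level of *Gria3* in GMPs, its genotype difference there and its difference between cell types are therefore given as a description without a test. The fall was named without a cell type, so the tests of *Gria3* in LSKs are descriptive and no independent support. The values of the other members were not named in that choice and are given with tests. *Gria3* and *Gria2* had counts that could be analysed. *Gria1* had 0 counts in all 16 libraries, and *Gria4* had 1 count in 1 library and 0 in the other libraries.

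RNA came from bone marrow of URE mice, in which the upstream regulatory element (URE), a distal enhancer of the PU.1 gene *Spi1*, is deleted in the germline and therefore in every cell, and of WT littermates. All mice were on the C57BL/6 background and 8 to 12 weeks old. After enrichment on c-Kit beads, LSKs (Lin- Sca-1+ c-Kit+, which hold stem cells and multipotent progenitors) and GMPs (Lin- Sca-1- c-Kit+ Cd16/32+, granulocyte-monocyte progenitors) were sorted, with 4 mice per genotype and cell type. Whether an LSK and a GMP library of the same number came from the same mouse is not given in the sources used here, and the sorted populations are mixtures of cells.

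AMPA receptors are ligand-gated cation channels that open when glutamate binds, and they carry most fast excitatory transmission between neurons of the brain. Each channel is a tetramer of the subunits GluA1 to GluA4, encoded by *Gria1* to *Gria4* in that order, and auxiliary proteins such as the TARPs (*Cacng* genes) set its trafficking and gating. Whether a channel lets calcium through depends on GluA2: the transcript of *Gria2* is edited by ADAR2 (gene *Adarb1*) at a glutamine codon of the pore loop, the Q/R site, so that arginine is made there, and channels that contain edited GluA2 pass little calcium. The *Gria3* subunit GluA3 keeps the glutamine.

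The coding sequences around the Q/R site are shown because the members that were expressed, *Gria2* and *Gria3*, have different calcium permeability through this codon, and because they show how alike the members are for read assignment. Each run has 63 coding bases, 5′ to 3′ on the sense strand, taken from the reference transcripts of GENCODE M21 (GRCm38), with the Q/R codon in capitals.
*Gria1*: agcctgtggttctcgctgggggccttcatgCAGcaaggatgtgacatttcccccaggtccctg
*Gria2*: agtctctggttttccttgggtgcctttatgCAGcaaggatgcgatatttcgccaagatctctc
*Gria3*: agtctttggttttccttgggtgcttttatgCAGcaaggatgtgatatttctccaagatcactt
*Gria4*: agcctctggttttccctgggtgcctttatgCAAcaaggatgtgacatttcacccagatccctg

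The codon is number 600 of *Gria1* (chr11:57243094-57243096), 607 of *Gria2* (chr3:80706911-80706913, minus strand), 612 of *Gria3* (chrX:41610265-41610267) and 608 of *Gria4* (chr9:4464137-4464139, minus strand), counted from the start codon. All lie in coding exons, and the reference codon is for glutamine in every member. *Gria2* and *Gria3* are identical at 57 of the 63 bases (90.5%), while *Gria1* and *Gria2* are identical at 49 (77.8%). All 4 windows translate to the same residues. Editing cannot be read from gene counts and was not measured. Over the whole genes, 1.41% of the 31-base words of *Gria2* and 1.49% of those of *Gria3* occur in another gene, and 64 and 47 words, respectively, in another *Gria* gene.

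*Gria3* (ENSMUSG00000001986) spans chrX:41400854-41678601 on the plus strand, with 9859 bases of merged exons. *Gria2* (ENSMUSG00000033981) spans chr3:80681450-80802835 on the minus strand, with 15548 bases. *Gria1* (ENSMUSG00000020524, chr11:57011387-57330244, plus strand) and *Gria4* (ENSMUSG00000025892, chr9:4417896-4796234, minus strand) have 6043 and 6305 bases. The only annotated exons that overlap those of a member are predicted miRNA genes: *Gm25749* shares 111 bases with *Gria2*, *Gm22413* 85 bases with *Gria3* and *Gm23811* 19 bases with *Gria4*. The libraries are not stranded, so that reads of either strand were counted together.

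Total counts per library ranged from 20028302 to 29128858 (median 22964477). Levels are given as CPM, the count scaled to the TMM-adjusted size of its library, and 3 counts, the limit that a count of 0 allows for counting error, correspond to 0.0977 to 0.164 CPM in these libraries. As a check of the labels, *Spi1*, which encodes PU.1, was at 3.05 ± 1.41 CPM in URE LSKs against 125 ± 40.0 in WT LSKs (SD, n = 4), and at 20.8 ± 5.59 against 139 ± 38.1 CPM in GMPs, with no overlap of the genotypes. Y-linked genes (*Ddx3y*, *Eif2s3y*, *Kdm5d* and *Uty* summed) exceeded *Xist* in 8 libraries, those of URE replicate 1 and of WT replicates 1, 2 and 3 in both cell types, so the genotypes differ in sex makeup, and *Gria3* is X-linked. Replicates 1 and 4 are alike in this respect across genotypes, and the genotype differences of *Gria2*, *Gria3* and the called list genes are also given for them alone.

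**Figure D1:**
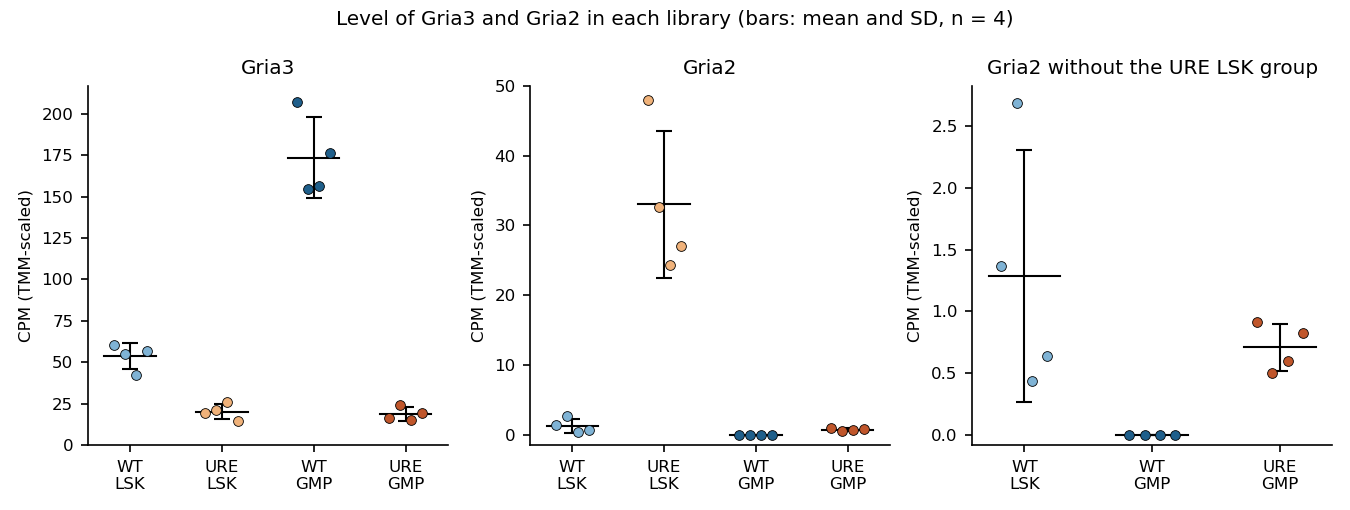
TMM-scaled CPM (vertical axes) of *Gria3* and *Gria2* in each of the 16 libraries by group, with horizontal bars for the mean and error bars for the SD (n = 4); the right panel repeats *Gria2* without URE LSKs on a smaller axis. *Gria3* was highest in WT GMPs (155 to 207 CPM) and similar in both URE groups, while *Gria2* was high in URE LSKs (24.4 to 47.9 CPM) and at 0 counts in WT GMPs.

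*Gria3* was the main AMPA subunit gene of the WT cells, and its level was lower in URE cells of both types. WT GMPs had 207, 155, 156 and 176 CPM in replicates 1 to 4, a mean of 174 ± 24.4 (SD, n = 4). URE GMPs had 16.6, 24.4, 15.1 and 19.6 CPM, a mean of 18.9 ± 4.11. Every WT GMP library lay above every URE GMP library, and the means differed 9.18-fold (log2 fold change of −3.18, and −3.42 with only replicates 1 and 4). This contrast chose the gene, so no test is given. In counts, the libraries held 3235 to 4712 reads in WT and 300 to 486 in URE GMPs, so that sampling of reads contributes little to the spread.

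In LSKs *Gria3* was also lower in URE cells. The choice of the family named this direction without limiting it to a cell type, so the test below is no independent support. WT LSKs had 60.3, 55.2, 42.5 and 56.5 CPM, with a mean of 53.6 ± 7.70. URE LSKs had 19.1, 21.3, 26.0 and 14.5 CPM, with a mean of 20.2 ± 4.79. All URE LSK libraries lay below all WT LSK libraries, and the level fell by 1.44 on the log2 scale (SE 0.23, edgeR quasi-likelihood test with Benjamini-Hochberg adjustment, adjusted p = 0.00577), which is a ratio of means of 2.65. The LSK and GMP values are not independent evidence if the same mice gave both. Of the 15154 genes tested in LSKs, 3.76% were called lower in URE cells (fold above 1.5, adjusted p under 0.05), and the genotypes did not overlap for 12.6%, so that a gap between the groups alone is common here. With only replicates 1 and 4, which are matched for sex, the log2 difference in LSKs was −1.86 (adjusted p = 0.00635), and with only replicates 2 and 3 it was −1.06 (adjusted p = 0.163). Over all alternatives the adjusted p lay between 2.25e-06 and 0.163.

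The order of the *Gria3* levels was WT GMP, WT LSK, URE LSK, URE GMP. In WT cells the GMP mean was 3.24 times the LSK mean (log2 difference of 1.70), and the cell types did not overlap. In URE cells the last neighbours in that order, LSKs and GMPs, overlapped, with a log2 difference of −0.09. The same-number ratios of GMP over LSK ranged from 2.80 to 3.68 in WT and from 0.580 to 1.36 in URE cells.

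Some markers of monocytes, dendritic cells and lymphoid cells were called lower in URE cells of both types, where *Gria3* was also lower. Summed over the 8 monocyte markers (*Ly86*, *Csf1r*, *Irf8*, *Ccr2*, *F13a1*, *Klf4*, *Ms4a6c* and *Cx3cr1*), levels lay between 1689 and 2226 CPM in WT GMPs and between 84.2 and 690 CPM in URE GMPs. In LSKs the sums were 120 to 157 CPM in WT and 11.4 to 22.3 CPM in URE cells. Of these markers, 6 of 8 tested were called lower in URE GMPs and 5 of 7 tested in URE LSKs, beside 3.63% and 3.76% of all genes tested, and none of the 8 was at 0 in every library of a group. The 5 dendritic cell markers summed to 15.8 to 47.6 CPM in URE and 198 to 312 CPM in WT GMPs, where 3 of 3 tested were called lower, and to 84.4 to 281 and 235 to 622 CPM in LSKs, where 1 of 3 was (*Cd74*, the invariant chain of MHC class II). The 5 lymphoid markers summed to 6.22 to 13.5 CPM in URE and 20.7 to 46.6 CPM in WT GMPs, with 2 of 2 tested called lower, and to 62.7 to 217 and 285 to 635 CPM in LSKs, with 2 of 4 called lower, most of the sum being *Dntt*, the terminal transferase of lymphoid precursors. In GMPs 2 of 5 basophil and mast cell markers were called lower (*Prss34* and *Ms4a2*) and 1 higher (*Mcpt8*), *Flt3* was called lower, and *Fcgr3*, which encodes an antigen of the GMP gate, was called higher (803 CPM in URE and 323 CPM in WT GMPs on average), as was *Pecam1* of the stroma and endothelium list (1 of 2 tested). Of all genes tested in GMPs, 4.67% were called higher. The stem and early progenitor markers summed to 116 to 215 CPM in URE and 272 to 458 CPM in WT GMPs, and the 10 neutrophil markers to 72262 to 153335 and 54192 to 72458 CPM. The neutrophil sums overlapped between genotypes, and of these 10 markers 0 were called higher and 0 lower in GMPs. In bulk RNA, fewer cells of a type and less RNA per cell cannot be told apart, and the part of these cell types or of the gate in the *Gria3* difference was not tested. URE GMP replicate 2, with the sum of 690 CPM, also had the highest *Gria3* value of its group. Without it the marker sums of URE GMPs were 84.2 to 120 CPM.

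**Figure D2:**
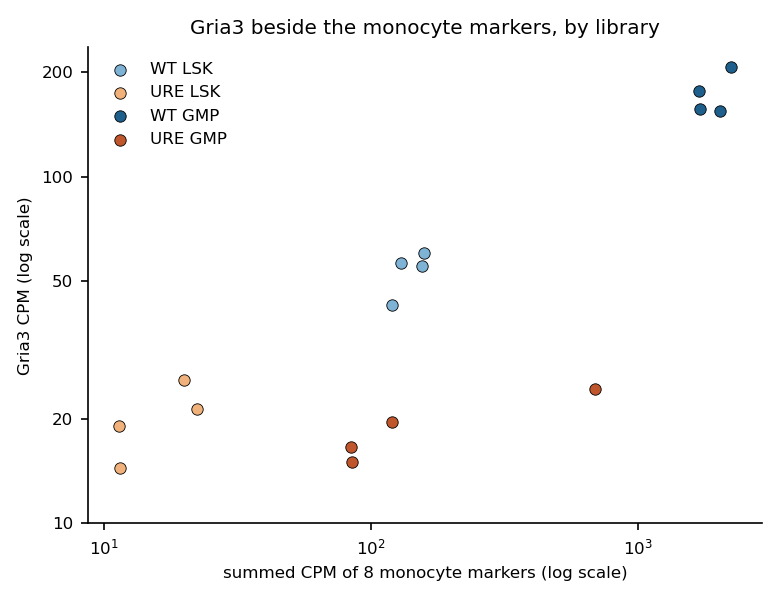
*Gria3* CPM (vertical, log axis) against the summed CPM of 8 monocyte markers (horizontal, log axis), 1 point per library (n = 4 per group). WT GMPs lie at the top right, while URE GMPs reach 690 CPM of the markers with at most 24.4 CPM of *Gria3*.

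The genes most like *Gria3* over the 16 libraries were *Rassf4*, *Milr1*, *Slc25a12*, *Rogdi* and *Cd68*, out of 9072 genes whose mean log2 CPM was 3 or more. Likeness was measured as the root mean square difference of log2 CPM centred on each gene's mean, which was 0.42 for *Rassf4*, 0.47 for *Milr1*, 0.52 for *Slc25a12* and *Rogdi* and 0.56 for *Cd68*. The libraries fall into 4 groups, so that the measure mainly compares group means. *Rassf4*, a Ras association domain protein, had 144 ± 30.7 CPM in WT GMPs, 22.4 ± 11 in URE GMPs, 55.5 ± 8.65 in WT LSKs and 29.7 ± 5.36 in URE LSKs (SD, n = 4). *Slc25a12*, a mitochondrial aspartate-glutamate carrier, had 292 ± 31.4 CPM in WT GMPs against 50.9 ± 16.2 in URE GMPs. *Milr1*, an inhibitory receptor of mast cells, and *Cd68*, a lysosomal glycoprotein of macrophages, were lower in level than *Gria3*, with 45.8 ± 14.4 and 58.3 ± 7.99 CPM in WT GMPs. *Rogdi* had 54.2 ± 6.40 CPM there. The same 5 genes were nearest with a prior count of 0.5 in place of 2.

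**Figure D3:**
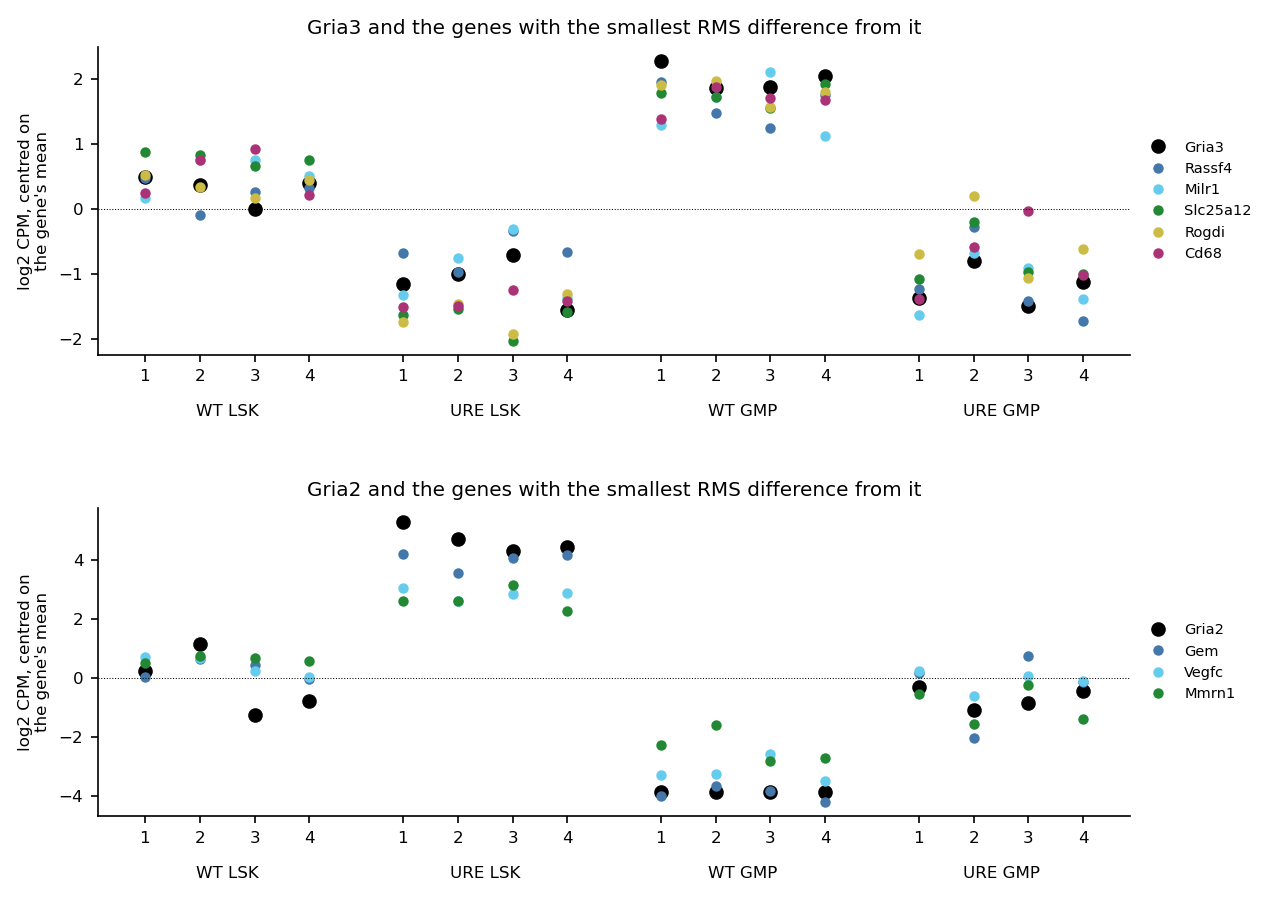
log2 CPM centred on each gene's mean over the 16 libraries (vertical axes), by group and replicate number, for *Gria3* with its 5 nearest genes (top) and *Gria2* with its 3 nearest (bottom); points are libraries. *Gria3* and its neighbours are highest in WT GMPs, and *Gria2* and its neighbours are highest in URE LSKs.

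*Gria2* showed the opposite direction to *Gria3* in LSKs and had its highest level in URE LSKs. URE LSKs had 47.9, 32.7, 24.4 and 27.1 CPM in replicates 1 to 4 (585 to 1196 counts), with a mean of 33.0 ± 10.5 (SD, n = 4). WT LSKs had 1.37, 2.69, 0.438 and 0.641 CPM (11 to 80 counts), with a mean of 1.28 ± 1.02. The lowest URE library lay above the highest WT library, and the ratio of means was 25.7, or 40.5 without WT replicate 2. The rise was 4.63 on the log2 scale (SE 0.56, edgeR quasi-likelihood test with Benjamini-Hochberg adjustment, adjusted p = 0.00133), and 2.38% of the genes tested in LSKs were called higher. It was seen in 4 of 4 same-number pairs, as any pairing gives without overlap, with ratios between 12.2 and 55.7. Replicates 1 and 4 alone gave 5.13 (adjusted p = 0.00334), replicates 2 and 3 alone 4.17 (adjusted p = 0.00891), and the adjusted p over all alternatives lay between 2.73e-17 and 0.00891.

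In GMPs *Gria2* was low, with a difference in the same direction. WT GMPs had 0 counts in all 4 libraries, which allows up to 0.129 to 0.149 CPM. URE GMPs had 19, 10, 12 and 15 counts, or 0.915, 0.502, 0.603 and 0.822 CPM, a mean of 0.710 ± 0.191. The sex-matched replicates 1 and 4 are thus at 0.915 and 0.822 CPM in URE against 0 counts in WT GMPs. Every URE GMP library thus held more than the 3 counts that a 0 allows, and their mean was at least 5.12-fold higher than the mean of the WT limits. The filter on low counts removed the gene from the GMP fit. An exact two-sided permutation test of log2 CPM gave p = 0.0286, which is the smallest that 4 against 4 libraries can give. This test did not pair the libraries by number. In such pairs URE was higher in 4 of 4, as in any pairing, since WT GMPs were at 0 counts. In GMPs, genotypes without overlap were seen for 14.9% of the 13829 genes that passed the filter. The share of genes called higher was 4.67% and the share called lower 3.63%.

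Between cell types, *Gria2* was higher in LSKs in both genotypes. In URE cells the LSK mean was 46.5 times the GMP mean, and the level fell by 5.52 on the log2 scale from LSKs to GMPs (SE 0.34, edgeR with Benjamini-Hochberg adjustment, adjusted p = 3.2e-05). In WT cells the LSK mean was at least 9.26-fold higher than the limit set by the 0 counts in GMPs, a bound that is 5.88 without WT LSK replicate 2. An exact two-sided permutation test of log2 CPM gave p = 0.0286, again the smallest possible, and the fitted difference is not given because it rests on the prior count. Calls by edgeR in this direction are frequent, since 12.6% of the genes tested in URE cells and 15.8% of those tested in WT cells were called lower in GMPs. The order of the *Gria2* levels was URE LSK, WT LSK, URE GMP, WT GMP, and WT LSKs and URE GMPs overlapped. The interaction of genotype and cell type for *Gria2*, fitted over all 16 libraries, had an adjusted p of 0.471 in edgeR (at least 0.306 in all alternatives). Of all genes, 1.22% were called in that test. The WT GMP counts of 0 leave the size of that difference to the prior count of the fit, and a difference was not shown.

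The neighbours of *Gria2* by the same measure were less close, with root mean square differences of 0.80 for *Gem*, 1.15 for *Vegfc* and 1.48 for *Mmrn1*. Candidates again needed a mean log2 CPM of 3 or more. The mean of *Gria2* lies below this limit, so genes at its own level were not searched. *Gem* encodes a small GTP-binding protein that inhibits voltage-gated calcium channels. It had 414 ± 77.4 CPM in URE LSKs, 31.2 ± 7.14 in WT LSKs, 25.0 ± 15.1 in URE GMPs and 1.60 ± 0.273 in WT GMPs (SD, n = 4), which is the order found for *Gria2*. *Vegfc*, a growth factor of lymphatic vessels, had 60.0 ± 7.30 CPM in URE LSKs and 11.1 ± 2.55 in WT LSKs. *Mmrn1*, a protein of platelet granules and endothelium, had 1017 ± 275 and 243 ± 15.9 CPM in these groups. *Vegfc* remained among the 3 nearest with a prior count of 0.5, as did *Gem*, while *Mmrn1* did not.

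Marker lists of other cells were checked beside *Gria2*. Of all genes tested in LSKs, 2.38% were called higher and 3.76% lower in URE cells. The 5 megakaryocyte markers summed to 59.4 to 387 CPM in URE LSKs and 63.8 to 85.4 CPM in WT LSKs, and 1 of 4 tested was called higher. The 7 markers of stem and early progenitor cells summed to 1266 to 1522 CPM in URE and 1571 to 2570 CPM in WT LSKs, and 1 of 7 was called lower (*Flt3*, a receptor of multipotent and lymphoid progenitors). The 5 basophil and mast cell markers summed to 131 to 260 and 68.9 to 158 CPM, and 2 of 5 were called higher. Of the 10 neutrophil markers 1 was called higher and 1 lower, and the monocyte, dendritic and lymphoid markers called lower in URE LSKs are given above. Of 4 genes for antigens of the sort, 1 was called lower, *Fcgr2b* (0.501 CPM in URE and 13.6 CPM in WT LSKs on average). The part of a shift among LSK subsets in the *Gria2* difference was not tested. The 10 neuron and glia markers summed to 38.2 to 51.2 CPM in URE LSKs and 26.4 to 75.1 CPM in WT LSKs, nearly all of it from *Mbp* (37.8 and 51.0 CPM on average). The neuronal genes *Snap25* and *Rbfox3* were at 0 in all URE LSK libraries, and *Syt1* was at 9 counts or fewer in any library.

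Set against exon length, the mix of subunits differed between the groups. Per kb of merged exons, *Gria2* contributed 50.6 ± 10.2% of the AMPA subunit RNA in URE LSKs (SD, n = 4), with 61.4, 49.3, 37.3 and 54.3% in replicates 1 to 4. In WT LSKs its share was 1.42, 2.99, 0.648 and 0.714%, in URE GMPs 1.29 to 3.37%, and in WT GMPs 0. The rest was *Gria3* in all groups, apart from the single *Gria4* count. In URE LSKs *Gria2* lay above *Gria3* in 2 of 4 libraries per kb of merged exons and in 1 of 4 per kb of the longest transcript, so that their order could not be set. In WT LSKs *Gria3* was 65.9 times *Gria2* per kb (103 times without replicate 2), and in URE GMPs 42.0 times. The summed family level per kb overlapped between URE and WT LSKs (4.17 ± 0.741 and 5.52 ± 0.812 CPM per kb). It was 17.6 ± 2.47 CPM per kb in WT GMPs and 1.97 ± 0.410 in URE GMPs.

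**Figure D4:**
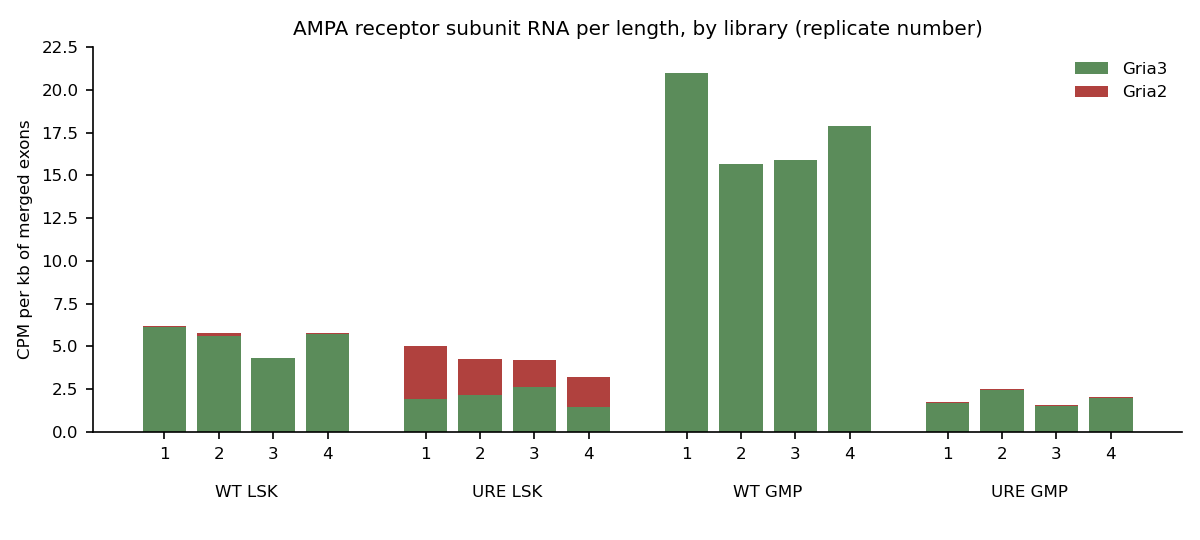
CPM per kb of merged exons (vertical axis) of *Gria3* and *Gria2*, stacked, for each library by group and replicate number. *Gria2* makes 37.3 to 61.4% of the bar in URE LSKs and at most 3.37% in every other group.

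Genes that work with AMPA receptors were examined as 6 lists with 78 genes in all, of which 21 had 0 counts in every library. In LSKs 31 of the 78 passed the filter. Of these, 1 (3.23%) was called higher and 1 (3.23%) lower in URE cells, beside 2.38% and 3.76% of all genes tested. In GMPs 26 passed, and 1 (3.85%) was called lower by edgeR, beside 3.63% of all genes. At an unadjusted p under 0.05 the numbers were 6 in LSKs and 3 in GMPs, beside 15.3% and 20.3% of all genes. DESeq2 called 5 and 4, beside 8.25% and 10.4% of all genes. In the interaction test edgeR called 0 of 33, with 7 at an unadjusted p under 0.05, and DESeq2 called 1, *Cacng8*, beside 11.6% and 3.23% of all genes. With the replicate block 1 was called, *Glud1*, whose genotype difference in GMPs minus that in LSKs was −0.89 on the log2 scale (adjusted p = 0.0249), beside 6.26% of all genes in that fit. The median log2 fold change of the list with the most tested genes, assembly and trafficking, was −0.10 in LSKs and 0.10 in GMPs, beside medians over all genes of 0.00 and 0.01. That of glutamate transport and metabolism was −0.14 in LSKs and −0.41 in GMPs. Between cell types, edgeR called 11 of 31 list genes (35.5%) lower in WT GMPs than in WT LSKs and 5 of 27 (18.5%) lower in URE GMPs than in URE LSKs, 9 and 3 of them in assembly and trafficking, beside the 15.8% and 12.6% of all genes given above. With the replicate block the numbers were 14 of 31 and 9 of 27, beside 25.1% and 18.6% of all genes.

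Auxiliary subunits were largely absent. Of 13 genes, 7 had 0 counts in all 16 libraries, including *Cacng2*, which encodes stargazin. *Shisa8*, a CKAMP family protein of the AMPA receptor, had 79 to 160 counts in WT LSKs and 0 to 8 in URE LSKs, or 4.46 ± 1.37 and 0.127 ± 0.137 CPM. It fell by 5.13 on the log2 scale in URE LSKs (SE 0.74, edgeR, adjusted p = 0.00348), without overlap of the genotypes. Without URE replicate 1, which held most of its URE CPM, it fell by 6.06. In GMPs it had 2 to 13 counts in WT and at most 1 in URE libraries, too few for the edgeR fit. *Cacng8*, a TARP, was low throughout, with 1.18 ± 0.889 CPM in URE and 0.615 ± 0.130 CPM in WT LSKs (edgeR, adjusted p = 0.759). In GMPs *Cacng8* had 3 to 13 counts in WT and 0 in URE libraries. There DESeq2 called *Shisa8* and *Cacng8* lower in URE cells, and edgeR with only replicates 1 and 4 called *Cacng8* (adjusted p = 0.0298).

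The 24 genes of assembly, trafficking and anchoring included broadly expressed genes that did not pass the test between genotypes. *Sacm1l*, a phosphoinositide phosphatase that also binds AMPA receptors in their biogenesis, had 150 ± 40.6 CPM in URE and 110 ± 23.8 CPM in WT LSKs (log2 difference of 0.41, adjusted p = 0.530). *Nsf*, the ATPase of membrane fusion, had 90.9 ± 14.4 and 67.7 ± 7.34 CPM (log2 difference of 0.39, adjusted p = 0.320). Of this list edgeR called 0 of 16 genes tested in LSKs (3 at an unadjusted p under 0.05) and 0 of 13 in GMPs (1 at an unadjusted p under 0.05). *Cpt1c*, which helps AMPA receptors leave the endoplasmic reticulum, and *Porcn*, a palmitoleoyl transferase found in AMPA receptor complexes, were called lower in LSKs by DESeq2 (log2 fold changes of −2.95 and −2.83, adjusted p of 0.00871 and 0.00174), as was *Dlg3*, a synaptic scaffold (−1.41, adjusted p = 0.0464). In the fit with a replicate block, *Cpt1c* was also called in LSKs (adjusted p = 0.0407), and *Abhd6*, a lipid hydrolase that binds AMPA receptors, was called lower in GMPs (log2 fold change of −1.22, adjusted p = 0.0184).

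Of the editing enzymes, *Adar* had 57.5 ± 40.2 CPM in URE and 86.1 ± 55.2 CPM in WT LSKs. *Adarb1*, whose product edits the Q/R site shown above, had 4.49 ± 1.78 CPM in URE and 2.77 ± 1.46 CPM in WT LSKs (log2 difference of 0.66, SE 0.47, adjusted p = 0.647 by edgeR), and the genotypes overlapped. In GMPs it was at 0.427 ± 0.402 and 0.689 ± 0.296 CPM. Of the editing genes edgeR called 0 between genotypes (0 at an unadjusted p under 0.05 in LSKs and 1 in GMPs, and 0 by DESeq2), while *Adarb2*, a related protein without known editing activity, was called higher in GMPs with the replicate block (log2 fold change of 1.35, adjusted p = 0.0443).

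Other glutamate receptors were scarce. Of the 14 kainate, delta and NMDA receptor genes, *Grik5* was the only one tested, with 1.86 ± 0.811 CPM in URE and 1.76 ± 0.855 CPM in WT LSKs (log2 difference of 0.04, SE 0.50), and *Grin2d* reached at most 10 counts. Of the 7 metabotropic receptors on the list, which are G protein-coupled, 0 passed the filter; *Grm4* and *Grm6* had the highest mean levels, with at most 6 and 7 counts in a library.

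In glutamate transport and metabolism, *Glul*, which makes glutamine from glutamate, had 260 ± 47.2 CPM in URE and 155 ± 21.7 CPM in WT LSKs, a rise of 0.71 on the log2 scale (SE 0.18, edgeR, adjusted p = 0.0490), just inside the threshold. *Glud1*, glutamate dehydrogenase, had 25.6 ± 2.33 CPM in URE and 57.1 ± 16.6 CPM in WT GMPs and fell by 1.15 on the log2 scale (SE 0.24, edgeR, adjusted p = 0.0190). *Got2*, the mitochondrial aspartate aminotransferase and the best expressed gene of the list, had 211 ± 33.3 and 198 ± 63.0 CPM in LSKs (log2 difference of 0.05, adjusted p = 0.976). The call of *Glul* was lost without any 1 of 7 LSK libraries (all except URE replicate 3), where the adjusted p was 0.0755 to 0.144. That of *Glud1* was lost without URE replicate 1, URE replicate 4 or WT replicate 4 of the GMPs, with adjusted p of 0.0630, 0.0547 and 0.0522. The call of *Shisa8* in LSKs held without any 1 of the 8 libraries. With only replicates 1 and 4, *Shisa8* remained called in LSKs (log2 fold change of −4.55, adjusted p = 0.0129), whereas *Glul* in LSKs (0.59, adjusted p = 0.0723) and *Glud1* in GMPs (−1.27, adjusted p = 0.0813) were not.

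**Figure D5:**
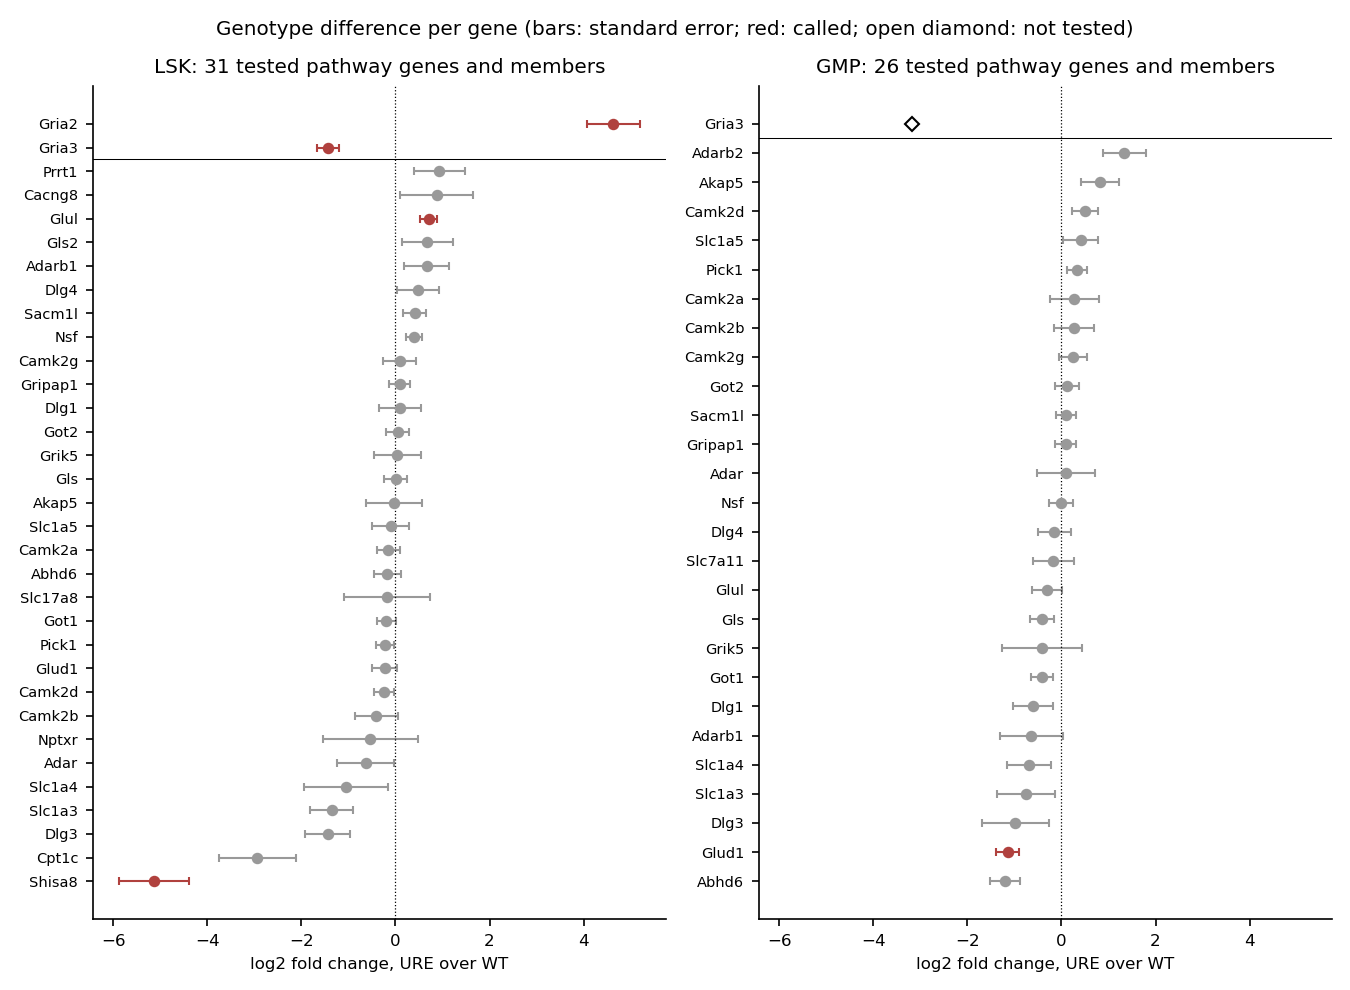
log2 fold change of URE over WT (horizontal axes) with its standard error for each tested gene of the 6 lists and, above the line, the members, in LSKs (left) and GMPs (right). Red points were called by edgeR, grey points were not, and the open diamond is *Gria3* in GMPs, given without a test; *Gria2* and *Shisa8* have the largest differences in LSKs.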

How the data were processed

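The authors quantified reads of low-input, unstranded polyA libraries with salmon, summed them per gene with tximport and deposited gene counts as whole numbers without normalization, 1 table of 54347 genes by 16 libraries. The build named in the submitters' processing notes is GRCm38. The annotation release is not given in the sources used here. Of the gene IDs, 54094 are in GENCODE M21, which gave positions, lengths and sequences. Up to 10 ng of RNA went into a library, without molecular identifiers, so that limits from counts cover counting error only.

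Members and gene lists were chosen with earlier results of these data known. URE and WT were compared in LSKs and in GMPs, and GMPs and LSKs within each genotype, by separate edgeR 4.0.16 fits (R 4.3.3, limma 3.58.1; TMM, filterByExpr, quasi-likelihood test, Benjamini-Hochberg adjustment over all genes tested), and the interaction over all libraries. A call needed a fold above 1.5 and an adjusted p under 0.05, as in the study, which used DESeq2. Exact permutation tests (scipy 1.17.1) were run on log2 CPM (prior count 2), and a count of 0 was bounded at 3 counts per library. The permutation tests exchanged labels freely, and neither they nor the main edgeR fits, with the interaction, paired libraries by number. P-values measure the spread between 4 mice per group, with same-numbered libraries treated as independent.

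The genes named were *Spi1*, the members, list genes called in LSKs or GMPs, the 2 best expressed of each list, *Adar* and *Adarb1*, the 5 genes nearest *Gria3* and the 3 nearest *Gria2*, genes overlapping a member, and the sex-linked genes. *Cacng2*, *Cpt1c*, *Porcn*, *Dlg3*, *Abhd6* and *Adarb2* fall outside this rule and were named after their values were seen, as were the single markers. The results of 2 genes of the lists are not reported here. Alternatives were DESeq2 1.42.0, RLE size factors, other filters, a replicate block, a term for replicates 1 and 4, the Y-linked level as covariate, thinned counts, a joint fit and leaving out each library. Fits of replicates 1 and 4 only and of 2 and 3 only were added after seeing the data. Deviations of same-numbered libraries, whose numbers come from the labels, correlated in every pair (0.30 to 0.61 in LSKs, 0.28 to 0.62 in GMPs, 0.47 to 0.77 between cell types in WT and 0.44 to 0.58 in URE). Libraries of different numbers correlated at −0.56 to 0.43 in LSKs, −0.54 to 0.48 in GMPs, −0.64 to 0.33 in WT and −0.51 to 0.40 in URE. In LSKs and GMPs, URE replicate 4 correlated more with WT replicate 1 (0.43 and 0.48) than with WT replicate 4 (0.30 and 0.28). The numbers were used as pairs in the replicate block and the same-number ratios, but these values do not settle that they pair the libraries.

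On simulated data with 200 genes changed 4-fold, the LSK fit recovered 190 with 14 false calls among 14991 genes, and the interaction fit 139 with 5 false calls among 15520 genes. The simulated counts were independent between libraries, with the same dispersion for every gene and no replicate, batch or sex structure. They check that the fits run as intended, and the rates of recovery and false calls in the deposited data were not measured.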

Additional observations from a re-analysis of the deposited data

Results flagged for a closer look

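In groups of 4 libraries, a library was taken to stand apart when its gap to the nearest other library, over the range of the group, exceeded the 95% critical value of Dixon's test. Of 72 groups checked, about 4 would do so by chance, and 3 did. *Gria4* was at 0.0481 CPM in URE GMP replicate 1, which is its only count, and at 0 in the other 3 libraries of the group. *Shisa8* was likewise at 0.0481 CPM in URE GMP replicate 1, a single count. *Slc25a12*, one of the genes most like *Gria3*, reached 75.1 CPM in URE GMP replicate 2, whereas the other libraries of the group had 40.9 to 44.1 CPM. That library also held the highest sum of monocyte markers in its group.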

How the results depend on the processing

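Genes called between genotypes numbered 930 in LSKs, 1148 in GMPs and 194 in the interaction by edgeR. DESeq2 called 1638, 1984 and 611. The replicate block gave 1433, 2260 and 998 calls, and a term for replicates 1 and 4 gave 1425, 1880 and 572. The Y-linked level as covariate gave 507 in LSKs and 620 in GMPs. With only replicates 2 and 3, chosen after seeing the data, 386, 108 and 2 were called, and 2507 and 810 between cell types in WT and URE (4037 and 3133 with all libraries). With only replicates 1 and 4, likewise chosen later, 988, 1236 and 174 were called. Leaving out 1 library gave 565 to 961 calls in LSKs, 715 to 1176 in GMPs and 84 to 283 in the interaction, the lowest without WT LSK replicate 2, URE GMP replicate 4 and URE GMP replicate 4. The cause of these shifts was not tested. They left *Gria2* in LSKs called under all 19 alternatives, and *Gria3* in LSKs under 18 of 19, the exception being replicates 2 and 3 only (−1.06 on the log2 scale). With the replicate block the log2 fold changes in LSKs were 4.85 for *Gria2* (adjusted p = 0.000388) and −1.47 for *Gria3* (adjusted p = 0.00552), and the block changed no other call of a member.

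The *Gria2* difference in GMPs was 3.20 in log2 CPM with a prior count of 2, and 3.08 to 3.34 without 1 library, where 4 against 3 libraries cannot give an exact permutation p under 0.0571. It could not be fitted with RLE size factors, the block, the term for replicates 1 and 4, the covariate, thinned counts or replicates 2 and 3 only, since the filter on low counts removed it. DESeq2, no filter, 10 counts in 4 libraries, a joint fit and replicates 1 and 4 only kept it and called it (adjusted p of 3.24e-06 to 0.0163), with WT GMPs at 0 counts throughout. Of the list genes, edgeR called 2 in LSKs and 1 in GMPs, DESeq2 called 5 and 4, the block called 3 in GMPs, replicates 2 and 3 only gave 1 and 0, replicates 1 and 4 only gave 1 and 1, and leaving out 1 library gave 1 to 2 in LSKs and 0 to 2 in GMPs. Depth limits *Gria1*, *Gria4* and *Gria2* in WT GMPs, where levels under 3 counts per library cannot be seen.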
